A study of Mus musculus with 8 samples.

Results

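The genes described here are 9 genes of the Z-disc, *Myoz1*, *Myoz2*, *Myoz3*, *Myot*, *Ldb3*, *Tcap*, *Actn2*, *Actn3* and *Nrap*, of the 19465 genes counted in the series. They were taken by symbol from the gene list of the files, by a rule that uses no measured value, though with earlier results of these data known, and all 9 passed the filter on low counts in every comparison. The series holds 8 Visium sections of embryonic mouse diaphragm, each from FFPE tissue and read on spots of 55 µm. 3 sections are controls at E14.5, 2 are controls at E18.5, and a single section each stands for CaV1.1 KO at E14.5, CaV1.1 KO at E18.5 and β-cat cKO at E18.5. CaV1.1 KO embryos (CaV1.1 -/-, labelled dysgenic) lack the voltage sensor of excitation-contraction coupling in the whole animal. The β-cat cKO embryo lost β-catenin through HSA-Cre acting on floxed alleles, a driver of skeletal muscle, so the other cells of a spot keep the gene. No control was null for either gene, though heterozygous embryos could serve as controls. With 1 embryo in each mutant group, a mutant value has no replicate, and its test assumes that it varies as the controls do.

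The Z-disc is the plate at each end of the sarcomere in which thin filaments of opposite polarity are cross-linked. α-actinin makes the cross-links, and telethonin, myotilin, the PDZ-LIM protein ZASP and the myozenins (also called calsarcins) are bound to it or to titin at the same place. Myozenins also tether the phosphatase calcineurin, and Nrap is a LIM protein of early myofibrils and of the muscle ends.

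Of the spots with at least 1000 UMIs, between 55.3% and 89.5% of a section counted as muscle, by the mean of *Ttn*, *Neb*, *Des*, *Ryr1*, *Mylpf*, *Tnnt3*, *Acta1* and *Myl1*. No gene described here is among those 8. The muscle spots number from 493 in the KO at E14.5 to 3095 in E18.5 control 1, and hold from 12879384 to 75869271 UMIs. *Cacna1s*, which encodes CaV1.1, stands at 18.2 to 22.7 CPM (the gene's UMIs scaled by all UMIs of those spots) in the E14.5 controls against 16.3 in the KO, and at 61.2 and 63.8 in the E18.5 controls against 31.4 in the KO. *Ctnnb1*, which encodes β-catenin, is at 81.5 CPM in the cKO and at 71.6 and 75.9 in its controls, so its counts do not set the cKO apart. Where the probes lie relative to the deleted parts is not given in the sources used here, so neither gene may test the labels. Among lists of other cell types, the 5 cardiac genes sum to 8.88 to 118 CPM in muscle spots and the 7 fibroblast and tendon genes to 5002 to 7780, with no gene of any list at 0. A spot can hold several cell types, and fewer muscle cells in a spot cannot be told apart from less RNA per muscle cell.

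Each of the 9 genes was more abundant in muscle spots than in the remaining spots of the same section, in 8 of 8 sections. The ratio of the levels ran from 1.75 (*Actn3*, KO at E14.5) to 10.6 (*Myoz3*, E14.5 control 3, where the spots outside muscle held 1 UMI). The genes are not confined to muscle spots. *Actn2*, the α-actinin of all striated fibers, had a UMI in 97.8% to 100% of the muscle spots of a section and in 79.2% to 100% of the others. *Myoz3* was the least counted, with a UMI in 15.7% to 25.4% of the muscle spots of controls at E14.5 and 74.3% and 80.9% at E18.5, against 1.03% to 7.87% and 22.3% and 36.4% of the spots outside muscle.

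**Figure D1:**
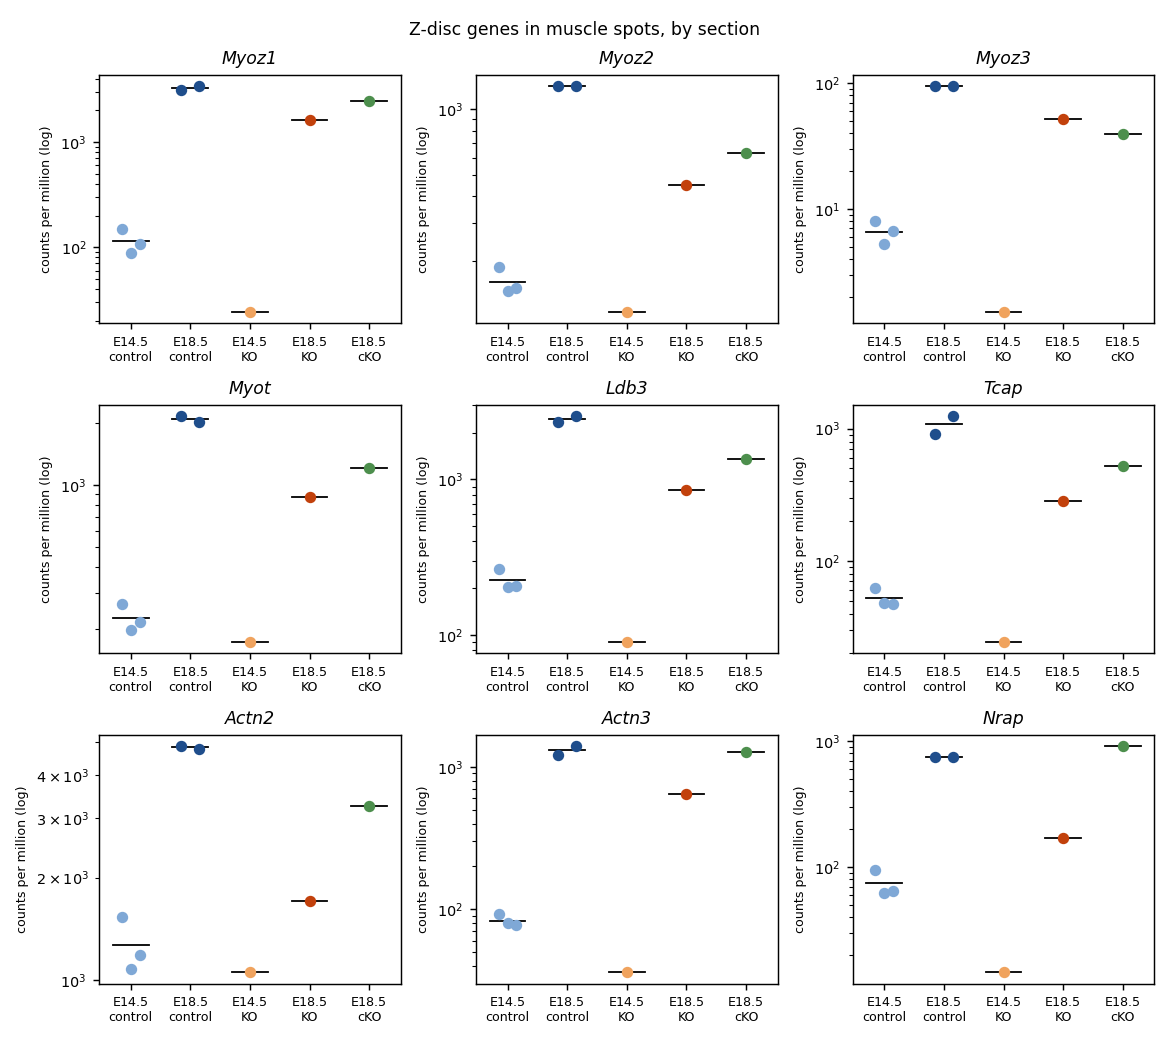
TMM-scaled CPM (log axis) of the 9 genes in the muscle spots of the 8 sections, 1 point per section, with a bar at the group mean. The 2 points of the E18.5 controls lie above the 3 of the E14.5 controls in each panel, and the KO at E14.5 is the lowest point in each.

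All 9 genes rose between E14.5 and E18.5 in control muscle relative to all genes, though *Myoz2*, *Myot* and *Actn2* did not relative to muscle genes (below 0 on that scale). The smallest log2 fold change was 1.94 and the largest 4.85, with a median of 3.45 against -0.01 over all genes. In this comparison 65.5% of the 14843 genes tested passed an adjusted p of 0.05 (edgeR quasi-likelihood test, Benjamini-Hochberg over all genes), and 33.3% of the genes tested passed as higher, so a call alone says little about the members. In no gene did a control section of one stage reach the range of the other. Markers of other cells moved with stage in the same spots, as the 5 cardiac genes summed to 75.1 to 118 CPM in the E14.5 controls against 11.5 and 13.0 in the E18.5 controls, and the 4 smooth muscle genes to 544 to 695 against 309 and 314. Their part in the stage differences was not tested.

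The 3 myozenin genes encode small Z-disc proteins that bind α-actinin, filamin C and telethonin. *Myoz1* (ENSMUSG00000068697, chr14:20649107-20656540 of GRCm38, minus strand) encodes the form typical of fast fibers. Its TMM-scaled CPM was 148, 88.8 and 107 in the 3 sections of E14.5 and reached 3158 and 3427 at E18.5 (log2 fold change 4.85, SE 0.22, adjusted p = 1.82e-06). *Myoz2* (ENSMUSG00000028116, chr3:123006206-123035015, minus strand), the form of slow fibers and heart, stood at 187, 146 and 151 and rose to 1285 and 1283 (log2 fold change 2.99, SE 0.13, adjusted p = 1.7e-06). *Myoz3* (ENSMUSG00000049173, chr18:60573750-60591788, minus strand), a skeletal muscle form, rose from 7.96, 5.23 and 6.64 to 94.9 and 95.4 (log2 fold change 3.86, SE 0.16). The E18.5 controls lay far above the E14.5 controls for each of the 3, and relative to their mean the E18.5 controls differed less from each other than the E14.5 controls did.

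The make-up of the myozenin pool changed with stage. *Myoz2* gave 54.6%, 60.8% and 57.0% of the UMIs of the 3 genes in the E14.5 controls, and 28.3% and 26.7% in the E18.5 controls. *Myoz1* gave 43.1%, 37.1% and 40.5% at E14.5 and 69.6% and 71.3% at E18.5. *Myoz3* stayed between 1.98% and 2.51% in the 5 controls. These shares compare counts of different probes, so only their change between sections can be read, not which gene has more RNA.

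The scaffold genes followed the same order. *Myot* (ENSMUSG00000024471, chr18:44334074-44355724, plus strand) encodes myotilin, which bundles actin at the Z-disc, and rose from 265, 198 and 216 CPM to 2152.5 and 2009 (log2 fold change 3.20, SE 0.15). *Ldb3* (ENSMUSG00000021798, chr14:34526603-34588682, minus strand) encodes ZASP, and rose from 266, 202 and 207 to 2343 and 2559 (log2 fold change 3.45, SE 0.15). *Tcap* (ENSMUSG00000007877, chr11:98383811-98384953, plus strand) encodes telethonin, which joins the ends of 2 titin molecules, and rose from 62.7, 47.9 and 47.6 to 907 and 1247 (log2 fold change 4.35, SE 0.19). *Tcap* was the member on which the E18.5 controls differed most from each other, with an SD of 23.0% of their mean before TMM scaling, against 0.356% for *Actn2*.

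The α-actinin genes rose by different amounts. *Actn2* (ENSMUSG00000052374, chr13:12269426-12340760, minus strand) went from 1529, 1079.9 and 1183 to 4871 and 4796 CPM, the smallest rise among the 9 (log2 fold change 1.94, SE 0.16, adjusted p = 2.77e-05). *Actn3* (ENSMUSG00000006457, chr19:4861216-4877909, minus strand), restricted to fast fibers in mature muscle, went from 92.8, 79.6 and 77.5 to 1209.5 and 1394.5 (log2 fold change 3.97, SE 0.13, adjusted p = 6.53e-07). Its share of the UMIs of the pair moved from 5.72%, 6.87% and 6.15% at E14.5 to 19.9% and 22.5% at E18.5. *Nrap* (ENSMUSG00000049134, chr19:56320035-56390037, minus strand) rose from 94.8, 62.5 and 64.7 to 746 and 742 (log2 fold change 3.33, SE 0.19, adjusted p = 4.27e-06).

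The rise was in part shared by the 8 genes that chose the muscle spots. They summed to 25471, 20267 and 21428 CPM in the E14.5 controls and to 124830 and 128156 in the E18.5 controls. Values scaled to these 8 genes also carry any change of those genes themselves. With libraries scaled to those 8 genes, which moves the median of all genes to -3.25, *Myoz1* (1.65), *Tcap* (1.14), *Actn3* (0.74) and *Myoz3* (0.64) were still higher at E18.5. On that scale *Actn2* was lower, at -1.28 (adjusted p = 5.45e-19), and *Myoz2*, *Myot*, *Ldb3* and *Nrap* were between -0.22 and 0.23 and not called. Scaled to total UMIs without TMM, where the median of all genes is -0.73, all 9 stayed called as higher. Together the 9 genes had 11.5% to 11.9% as many UMIs as the 8 muscle genes in the E14.5 controls and 9.74% and 10.0% in the E18.5 controls.

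Other sarcomere genes rose with them. Of a list of 24 other Z-disc genes, 21 were tested, of which 17 were higher and 1 lower at E18.5 (median log2 fold change 2.13), led by *Ankrd2* (4.78, SE 0.18), a stretch-responsive ankyrin repeat protein, and *Fhl1* (3.62, SE 0.14), a LIM-only protein. All 8 thin filament genes tested were higher, as were 8 of 9 genes of the M-band and titin ligases and 8 of 9 genes of sarcomere assembly and chaperones. Of 12 genes of calcineurin signaling, the pathway myozenins bind to, 8 were higher and 3 lower (median 0.62), with *Rcan2*, an inhibitor of calcineurin, highest at 2.50 (SE 0.15). *Des*, *Neb*, *Acta1* and *Ttn* of these lists also helped to choose the muscle spots.

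The bases just before the transcription start are shown for 3 of the genes, because the 9 rose together and these hold short motifs of muscle promoters. RefSeq promoter entries (GRCm38) were found for 4 of the 9 genes. The windows searched are the 250 bases before each start, on both strands, for the MEF2 box, the CArG box bound by serum response factor, and the E-box CAGCTG, which reads the same on both strands. Lower case marks the window of 150 bases before the start, 5′ to 3′ along the gene, and capitals mark a motif.
*Myoz2*, chr3:123034988-123035137, minus strand: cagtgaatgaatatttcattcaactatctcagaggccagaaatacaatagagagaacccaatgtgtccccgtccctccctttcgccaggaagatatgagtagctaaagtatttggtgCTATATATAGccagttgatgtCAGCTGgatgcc
*Ldb3*, chr14:34588682-34588831, minus strand: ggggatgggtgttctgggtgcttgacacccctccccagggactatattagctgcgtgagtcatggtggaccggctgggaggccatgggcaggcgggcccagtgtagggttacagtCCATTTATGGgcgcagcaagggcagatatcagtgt
*Nrap*, chr19:56390039-56390188, minus strand: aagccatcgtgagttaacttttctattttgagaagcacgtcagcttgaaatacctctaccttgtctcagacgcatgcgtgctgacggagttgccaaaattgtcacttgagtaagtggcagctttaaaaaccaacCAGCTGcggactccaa
The *Myoz2* window holds a MEF2 box 33 bases before the start and an E-box 12 bases before it. The RefSeq start of *Myoz2* lies inside the gene as annotated at the coordinates given for it above, so by that annotation this E-box is within the gene and the MEF2 box spans its first base. The *Ldb3* window holds a CArG box 35 bases before the start, and the *Nrap* window an E-box 16 bases before it. The fourth entry, *Actn2*, held none of the 3 motifs in its 250 bases. Over all 32851 promoters of the same length, 13.0% hold this E-box, 2.92% a MEF2 box and 1.47% a CArG box. A match is a run of letters and was not tested as a binding site.

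The 3 mutant comparisons ask what the loss of the calcium channel, at each stage, or of β-catenin in muscle does to these genes. Both mutants at E18.5 were set against the same 2 controls, so their differences are not independent and are given side by side.

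**Figure D2:**
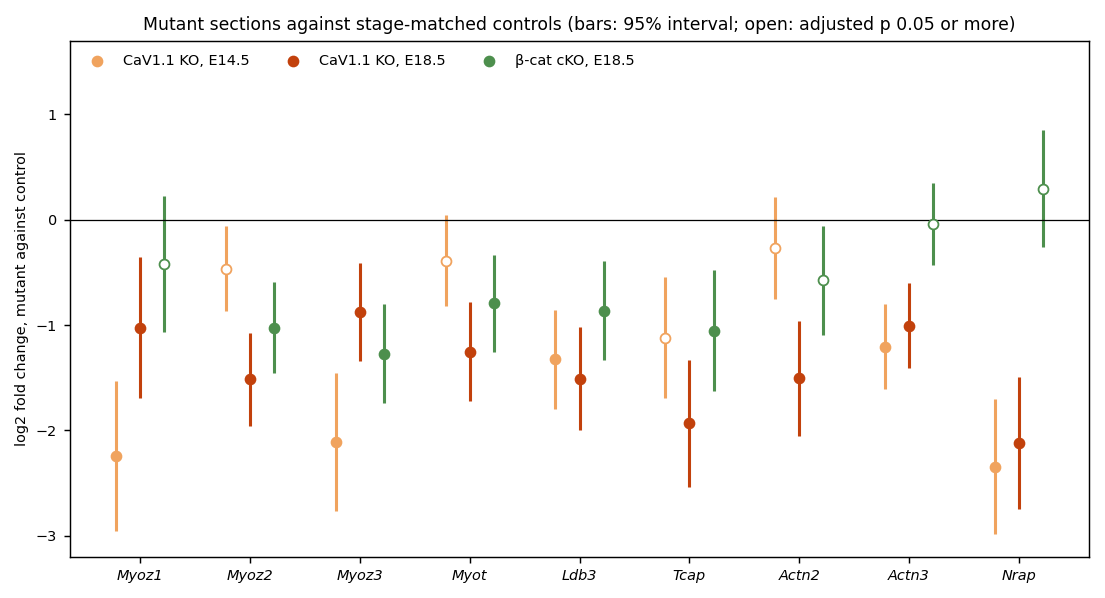
Log2 fold change of each gene in the muscle of the 3 mutant sections against the controls of the same stage, with 95% intervals from edgeR. Filled points passed an adjusted p of 0.05 and open points did not. The KO at E18.5 is filled and below 0 for all 9 genes, of which 4 turned above 0 when scaled to the muscle genes, and the cKO reaches above 0 only for *Nrap*, which is open.

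In the CaV1.1 KO at E14.5, *Nrap*, *Myoz1*, *Myoz3*, *Ldb3* and *Actn3* were lower and *Myoz2*, *Myot*, *Tcap* and *Actn2* did not pass. Of all genes tested, 2.05% were called and 1.55% as lower, and the median of the 9 was -1.20 against 0.00 over all genes. *Nrap* was at 14.6 CPM in the KO against 94.8, 62.5 and 64.7 in the controls (log2 fold change -2.35, SE 0.28, adjusted p = 0.0112). *Myoz1* was at 24.2 against 148, 88.8 and 107 (-2.24, SE 0.30, adjusted p = 0.0173). Both lay well below the lowest of the 3 controls. *Myoz3*, with 38 UMIs in the muscle of the KO and 106 to 191 in that of the controls, was at 1.52 CPM against 5.23 to 7.96 (-2.11, SE 0.28, adjusted p = 0.0167). It had a UMI in 5.68% of the muscle spots of the KO and in 2.51% of its other spots, at median depths of 20595 UMIs in muscle spots and 16423 in all kept spots.

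*Ldb3* was at 89.8 CPM against 202 to 266 (-1.33, SE 0.20, adjusted p = 0.0247), and *Actn3* at 36.2 against 77.5 to 92.8 (-1.20, SE 0.17, adjusted p = 0.0205). *Tcap*, at 24.3 against 47.6 to 62.7, lay below all controls but was not called (-1.12, SE 0.25, adjusted p = 0.0726). *Myoz2* at 117, *Myot* at 173 and *Actn2* at 1052 were each just under the lowest control, with log2 fold changes of -0.46, -0.39 and -0.26. The 8 muscle genes summed to 14962 CPM in this section, also below the controls, and scaled to them, which moves the median of all genes to 0.57, the same 5 genes were called as lower while *Myoz2* (0.13), *Myot* (0.20) and *Actn2* (0.33) turned above 0 without a call. Without E14.5 control 3, *Nrap* was the member called (-2.43, adjusted p = 0.0457). *Myoz1* was then at -2.29 (adjusted p = 0.0755) and *Myoz3* at -2.10 (adjusted p = 0.0734). Of all genes, 65 of 14927 were called without that section, against 304 of 14843 with it, so the loss of calls was not particular to the members. Leaving out any single control, *Myoz1* stayed between -2.40 and -2.01 and *Myoz3* between -2.27 and -1.94. The controls left without control 3 share the software version of the KO, and the part of the version was not tested.

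*Myoz1* gave 17.0% of the myozenin UMIs of the KO at E14.5 and *Myoz2* 82.0%, outside the range of the 3 controls and further from the E18.5 shares than they were. The *Actn3* share of the α-actinin pair was 3.32%, also below the 3 controls. Of the 21 other Z-disc genes tested, 4 were lower and none higher (median -0.32), namely *Ankrd2* (-2.07), *Csrp3* (-1.53), *Fhl1* (-1.10) and *Pdlim7* (-0.70). The thin filament genes *Lmod2* (-2.48) and *Tmod4* (-1.78) and the calcineurin target *Nfatc2* (-1.63) were lower too, and no gene of the M-band list or the assembly list was called.

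In the CaV1.1 KO at E18.5 all 9 genes were lower relative to all genes, with a median log2 fold change of -1.50, though 4 of them turned above 0 relative to muscle genes. Of all genes tested, 25.5% were called and 15.1% as lower. *Nrap*, at 171 CPM against 746 and 742, had the largest drop of the 9 (-2.12, SE 0.27, adjusted p = 0.00273). *Tcap* followed at 282 against 907 and 1247 (-1.93, SE 0.26, adjusted p = 0.00315). Both genes stood far below either control. *Myoz2* was at 449 against 1285 and 1283 (-1.51, SE 0.19), *Ldb3* at 861 against 2343 and 2559 (-1.51, SE 0.21) and *Actn2* at 1703 against 4871 and 4796 (-1.50, SE 0.23). *Myot* was at 874 against 2152.5 and 2009 (-1.25, SE 0.20). The smallest drops were those of *Myoz1*, at 1619 against 3158 and 3427 (-1.02, SE 0.29, adjusted p = 0.0363), *Actn3*, at 649 against 1209.5 and 1394.5 (-1.005, SE 0.18), and *Myoz3*, at 51.8 against 94.9 and 95.4 (-0.88, SE 0.20, adjusted p = 0.018). The *Myoz1* call was lost without E14.5 control 3 or without either E18.5 control, where its fold change was between -1.08 and -0.96.

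Each of the 9 genes in the KO at E18.5 lay above the E14.5 controls and below the E18.5 controls. The composition did not lie between them: *Myoz1* gave 76.4% of its myozenin UMIs and *Actn3* 27.6% of its α-actinin UMIs, both above the 2 controls. The 8 muscle genes moved with the drop and summed to 69511 CPM against 124830 and 128156. The 4 smooth muscle genes summed to 191 CPM against 309 and 314, and the 4 cartilage genes to 23.3 against 960 and 62.9, so the controls differ from each other in cartilage, and the part of either list in the drop was not tested. Scaled to the 8 muscle genes, which moves the median of all genes to 1.40, *Nrap* (-0.72, adjusted p = 0.00589) and *Tcap* (-0.53, adjusted p = 0.0402) were the 2 members still called. On that scale *Myoz1*, *Myoz3*, *Myot* and *Actn3* turned to values above 0 that were not called. Scaled to total UMIs without TMM, where the median of all genes is 0.54, *Myoz1* (-0.49) and *Myoz3* (-0.34) lost their call.

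Of the 21 other Z-disc genes tested in this section, 17 were lower and 1 higher (median -0.94), with *Ankrd2* at -6.83 (SE 0.35), *Csrp3*, the muscle LIM protein, at -4.33 (SE 0.34), *Fhl1* at -3.18 (SE 0.22) and *Xirp1* at -1.71 (SE 0.26). Of the thin filament genes 7 of 8 were lower, of the M-band list 6 of 9 and of the assembly list 5 of 9, among them the chaperone *Hspb1* (-2.33) and the transcription factor *Srf* (-1.61). Of the calcineurin genes *Rcan2* was higher (0.80) and *Ppp3cb* (-0.75) and *Rcan1* (-0.66) lower.

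The KO difference was compared between stages by an interaction term, for which 6.27% of all genes were called. *Myoz2* was the member called, with a difference 1.05 lower at E18.5 than at E14.5 on the log2 scale (-1.05, SE 0.25, adjusted p = 0.049). *Myoz1* (1.22, adjusted p = 0.0982) and *Myoz3* (1.23, adjusted p = 0.0751) had the opposite sign, as their drop was smaller at E18.5, and *Actn2* was at -1.24 (adjusted p = 0.0537). *Myoz2* lost this call without E14.5 control 2, without E14.5 control 3 and without either E18.5 control, and scaled to the muscle genes it was at -0.24 while the interaction was called above 0 for *Myoz1*, *Myoz3*, *Actn3* and *Nrap*. On that scale *Nrap* was below its controls at both stages, and the other 3 were below at E14.5 and above 0 without a call at E18.5. Of all genes, 110 of 14612 were called in this interaction without E14.5 control 2 and 0 of 14927 without E14.5 control 3. With all sections these were 930 of 14843. Leaving out 1 control, the value of *Myoz2* ran from -1.18 to -0.98.

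In the β-cat cKO at E18.5, *Myoz3*, *Tcap*, *Myoz2*, *Ldb3* and *Myot* were lower, and *Myoz1*, *Actn2*, *Actn3* and *Nrap* were not called. Of all genes tested 8.85% were called and 5.67% as lower, and the median of the 9 was -0.79. *Myoz3* was at 39.4 CPM against 94.9 and 95.4 (-1.27, SE 0.20, adjusted p = 0.0117), and was the one member that stayed called whichever control was left out. *Myoz2* was at 631 against 1285 and 1283 (-1.02, SE 0.19, adjusted p = 0.0188) and *Tcap* at 518 against 907 and 1247 (-1.05, SE 0.25, adjusted p = 0.0422). All 3 lay below both controls. *Ldb3* was at 1349 against 2343 and 2559 (-0.86, SE 0.20, adjusted p = 0.0429) and *Myot* at 1199.7 against 2152.5 and 2009 (-0.79, SE 0.20, adjusted p = 0.0495). Without E14.5 control 3, which enters only through the spread, *Myoz3* alone of the 9 was called. Of all genes 568 of 14927 were called then, against 1314 of 14843 with it. Without E14.5 control 2 or E18.5 control 2 there were 2 calls, without E18.5 control 1 there were 3 and without E14.5 control 1 there were 6.

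*Actn3* was at 1262 CPM in the cKO, between its 2 controls (-0.04, SE 0.17). *Nrap* was at 911 against 746 and 742, above both but not called (0.29, SE 0.24, adjusted p = 0.495). *Myoz1* was at 2459 (-0.42, SE 0.28) and *Actn2* at 3244 (-0.58, SE 0.22, adjusted p = 0.157), both under their controls. The 8 muscle genes summed to 102375 CPM, and scaled to them, which moves the median of all genes to 0.51, *Nrap* was the member called, as higher (0.81, adjusted p = 0.00624), while *Myoz1* (0.10) and *Actn3* (0.48) turned above 0 without a call. The 4 smooth muscle genes summed to 567 CPM in the muscle spots of the cKO against 309 and 314 in the controls, and their part in these differences was not tested.

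*Myoz1* gave 78.6% of the myozenin UMIs of the cKO and *Actn3* 28.01% of its α-actinin UMIs, both above the controls, while *Myoz3* gave 1.26%, below them. Of other Z-disc genes 3 of 21 were lower, *Fhl1* (-1.93), *Ankrd2* (-1.20) and *Cavin4* (-0.83), with none higher and a median of -0.16. *Tpm1* of the thin filament, *Myom1* and *Myom3* of the M-band, and *Rcan2* (-1.68, SE 0.21, adjusted p = 0.00544) were also lower.

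Set directly against each other, the KO at E18.5 was lower than the cKO for *Nrap*, at 171 against 911 CPM (-2.41, SE 0.29, adjusted p = 0.00502), and for *Actn3*, at 649 against 1262 (-0.96, SE 0.19, adjusted p = 0.0298). Of all genes 7.32% were called and 4.44% as lower in this comparison of 2 embryos. The other 7 members ranged from -0.93 (*Actn2*, adjusted p = 0.0687) to 0.40 (*Myoz3*, adjusted p = 0.309) and were not called.

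**Figure D3:**
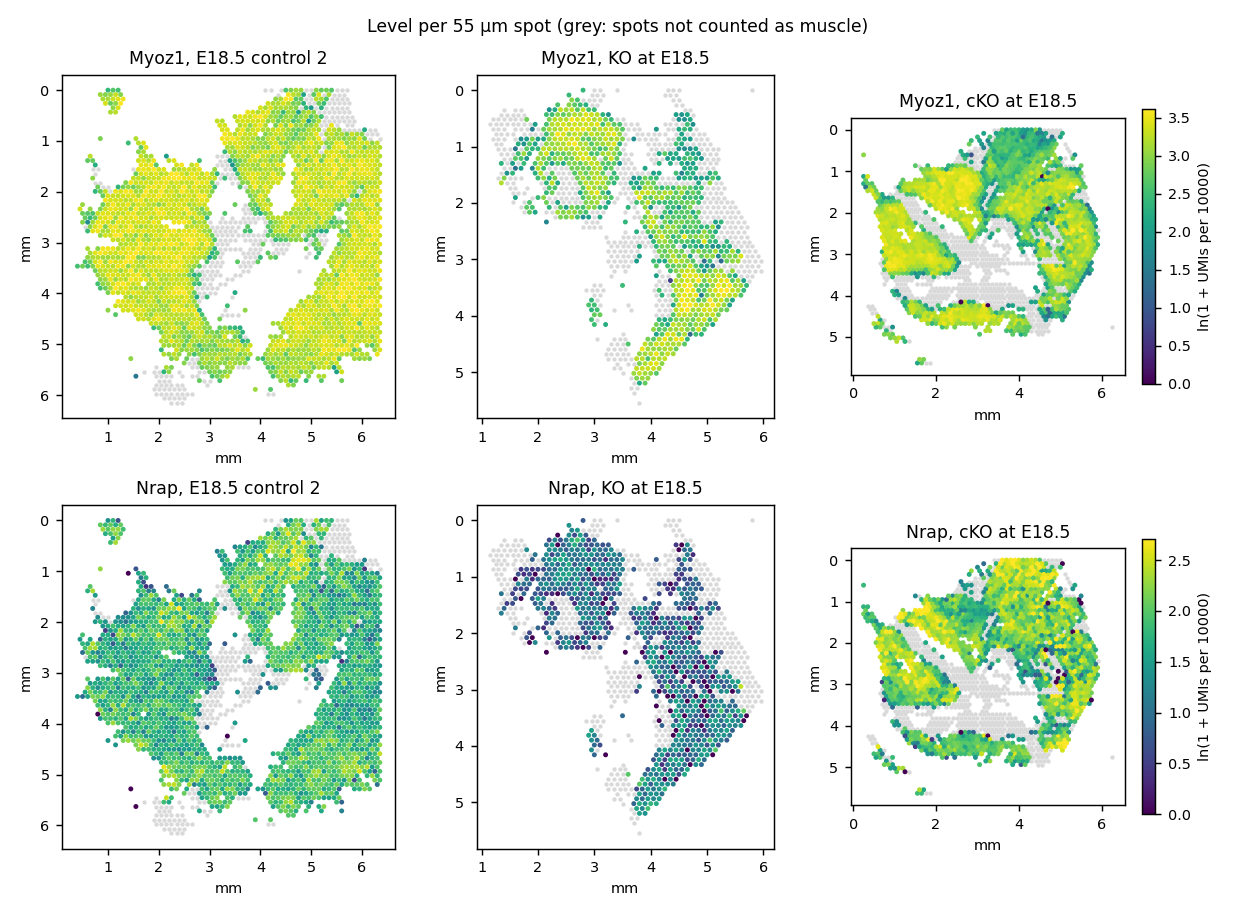
*Myoz1* (top) and *Nrap* (bottom) in each spot of E18.5 control 2, of the cKO and of the KO at E18.5, as the natural log of 1 plus UMIs per 10000, with 1 color scale per gene and axes in mm. Grey spots are not counted as muscle. *Nrap* is at the dark end of the scale across the muscle of the KO and at the bright end over much of the cKO, where *Myoz1* is low in 1 lobe at the top of the section.

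Along the fiber, the neuromuscular junctions (NMJ) lie in the center and the myotendinous junctions (MTJ) at the ends. Ranking muscle spots by a score of 8 endplate genes, the top 15% were called center, and the top 15% by a score of 4 MTJ genes were called periphery. In the E14.5 controls 7 of the 9 genes were higher in the center, *Tcap* was lower and *Nrap* was not called. In the E18.5 controls 8 were higher and *Nrap* was lower. Of all genes, 20.6% were called at E14.5 and 21.6% at E18.5.

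*Myoz1* had the largest difference at E14.5, with 219, 139 and 127 CPM in the center of controls 1, 2 and 3 against 70.4, 53.8 and 77.7 in the periphery (1.30, SE 0.10, adjusted p = 1.73e-11). The lowest center was above the highest periphery. *Myoz3*, at 15.1, 7.68 and 7.21 against 2.99, 4.58 and 6.26, had a similar difference (1.15, SE 0.26, adjusted p = 0.0014), most of it in control 1: without that section it was 0.56 and lost its call (adjusted p = 0.236). *Myot* was at 320, 291 and 273 against 219, 155 and 179.6 (0.70, SE 0.06, adjusted p = 4.58e-10). *Actn3* (0.40), *Actn2* (0.35), *Ldb3* (0.30) and *Myoz2* (0.24) were higher in the center by less. Scaled to the muscle genes, 5 members were called as higher and 2 as lower, where 2570 of all 14168 genes were called. *Myoz2* (0.11, adjusted p = 0.409) and *Ldb3* (0.16, adjusted p = 0.147) lost their call there, and *Nrap* was lower in the center (-0.36, adjusted p = 0.00287).

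*Tcap* ran the other way at E14.5. It was at 62.9, 46.9 and 43.7 CPM in the center and at 74.1, 74.3 and 51.8 in the periphery, lower in the center in 3 of 3 sections (-0.43, SE 0.10, adjusted p = 0.00193), but without control 2 the difference was -0.23 and not called. At E18.5 it was at 964 and 1344 in the center against 702 and 921 in the periphery (0.50, SE 0.06, adjusted p = 4.16e-08). The difference changed by 0.93 between the stages (SE 0.12, adjusted p = 1.25e-06). 8% of all genes were called in that interaction, and the other members called were *Myoz1* (-1.01, SE 0.12, adjusted p = 1.02e-06) and *Myot* (-0.48, SE 0.08, adjusted p = 0.000191), whose differences became smaller.

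At E18.5 the intermediate muscle, which is the rest of the muscle spots, was higher than both ends of this axis for many members. *Myoz1* was at 3524 and 3790 there, above its center values of 2707 and 3207 and its periphery values of 2367 and 2438. Against it, 6 of the 9 genes were lower in the center (7.56% of all genes were) and 8 were lower in the periphery (19.8% of all genes were). The drop toward the periphery was largest for *Myoz3* (-0.81, SE 0.07) and smallest, among those called, for *Actn2* (-0.38, SE 0.06). *Nrap* was the member that did not pass there, at 789 and 769 in the periphery against 767 and 764 in the intermediate muscle (0.03, SE 0.06, adjusted p = 0.786). It was at 661 and 691 in the center, below the periphery in 2 of 2 sections (-0.20, SE 0.06, adjusted p = 0.00822), and lost this call without E18.5 control 1. The 8 muscle genes had the order of *Myoz1*, at 130088 and 132929 CPM in the intermediate muscle and 114776 and 122255 in the center. They were at 111356 and 111189 in the periphery, and their part was not tested. Per 1000 of their UMIs, *Myoz1* had 18.7 and 19.9 in the intermediate muscle against 18.1 and 19.8 in the center. On that measure *Actn2* was lowest in the intermediate muscle (27.2 and 26.5) and *Nrap* highest in the periphery (5.62 and 5.62).

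Directions depended on how the regions were drawn. With inner muscle set against the muscle within 150 µm of other spots, *Nrap* was higher inside at both stages (0.57, adjusted p = 0.000167 at E14.5, and 0.45, adjusted p = 0.000358 at E18.5), and *Tcap* at E14.5 was at 0.17 and not called. Scaled to the muscle genes, *Myoz3*, *Tcap*, *Actn2* and *Nrap* kept their call at E18.5, and *Actn3* stood at -0.01. Without E18.5 control 2, these same 4 genes were called.

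Within the mutant sections the regional differences rest on 1 section each, and their test takes its spread from all 8 sections. The center score holds *Chrna1* and *Musk*, which the paper reports as spread beyond the fiber center in the KO at E18.5. The center of that section is therefore a rank within it and may not be the region it is in the controls. In the KO at E14.5 *Myoz1* was at 40.6 CPM in the center and 22.3 in the periphery (0.86, SE 0.26, adjusted p = 0.0465), and *Myot* at 245 and 174 (0.50, SE 0.11), where 2.95% of all genes were called as higher. At E18.5 *Actn3* of the KO was the member called, at 783 against 477 (0.71, SE 0.10, adjusted p = 1.96e-05), with 1.24% of all genes called as higher. Its difference was larger than in the E18.5 controls by 0.55 (SE 0.12, adjusted p = 0.0141), in an interaction that called 0.551% of all genes. In the cKO *Myoz1* and *Actn3* were each higher in the center by 0.32 (5.6% of all genes were). *Myoz3* was at 22.9 in the center, 46.1 in the intermediate muscle and 30.6 in the periphery of the cKO, and its center to periphery difference was below that of the controls (-0.98, SE 0.21, adjusted p = 0.00896, 1.31% of all genes called).

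**Figure D4:**
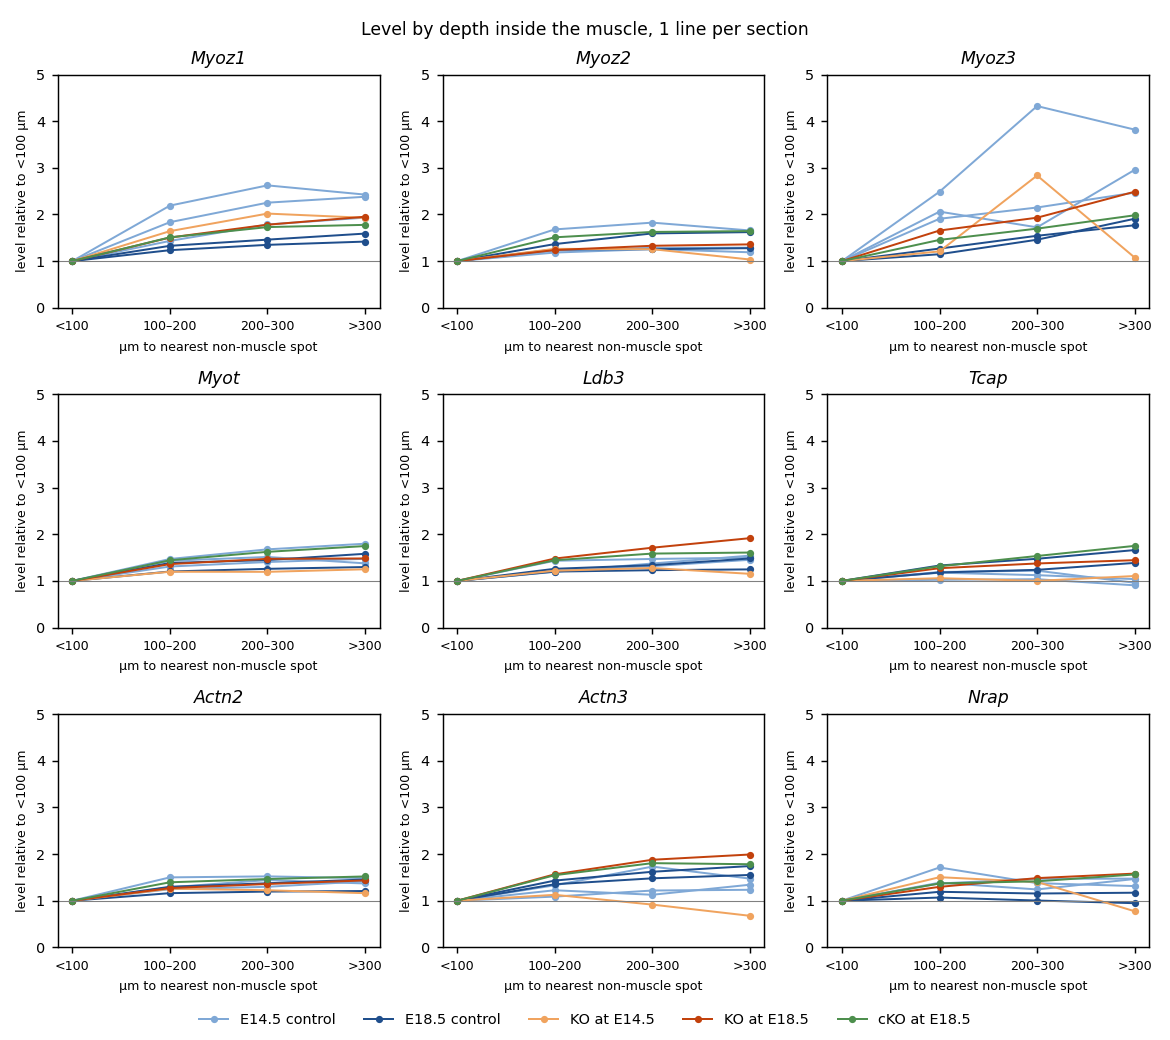
Level of each gene against how far a muscle spot lies from the closest spot outside muscle, in 4 bins (µm), relative to the spots within 100 µm, 1 line per section. *Myoz3* and *Myoz1* climb most in the E14.5 controls, *Myoz3* on only 106 to 191 UMIs per section, and *Nrap* in E18.5 control 1 ends under 1.

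The depth of a spot inside the muscle gives a view that uses no regional gene. The level of spots over 300 µm from other tissue was divided by that of spots within 100 µm, a description with no test. For the 8 muscle genes this ratio was 1.23, 1.31 and 1.43 at E14.5 and 1.29 and 1.53 at E18.5, controls only. *Myoz1* exceeded it at E14.5, with 2.38, 1.93 and 2.43, and *Myoz3* did so too, with 3.82, 2.47 and 2.96. The *Myoz3* ratios rest on few counts, as the whole muscle of these 3 sections held 191, 189 and 106 of its UMIs. *Tcap* was level at E14.5, with 0.960, 0.905 and 1.04, and reached 1.39 and 1.66 at E18.5. *Nrap* was below the muscle genes in both E18.5 controls, at 0.947 and 1.17, but close to them in the E14.5 controls, at 1.47, 1.47 and 1.31. In the KO at E14.5 the innermost bin holds only 12 spots, so its ratios were not read. For *Nrap* the KO had 1.58 at E18.5 and the cKO 1.56, near the 1.74 and 1.63 of the muscle genes.

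Fiber type was read from spots rich in slow or in fast genes, the outer 15% each of a score of *Myh7*, *Myl2*, *Myl3*, *Tnnc1*, *Tnnt1* and *Tnni1* minus *Myh4*, *Pvalb*, *Mybpc2* and *Atp2a1*. A spot of 55 µm holds several embryonic fibers, so these are mixtures and not single fiber types. In the E18.5 controls *Myoz1*, *Myoz3*, *Actn3*, *Myot*, *Tcap* and *Ldb3* were lower in slow-rich spots relative to all genes, with the last 3 turning higher relative to muscle genes, *Nrap* was higher, and *Myoz2* and *Actn2* were not called. Of all genes 19.7% were called.

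*Myoz3* had the largest difference, with 59.4 and 62.5 CPM in slow-rich spots against 138 and 130.1 in fast-rich spots (-1.14, SE 0.07, adjusted p = 3.06e-14). *Actn3* followed at 834 and 1006 against 1696 and 1895 (-0.97, SE 0.05, adjusted p = 2.76e-16), and *Myoz1* at 2399 and 2611 against 4046 and 4374 (-0.75, SE 0.06, adjusted p = 3.53e-12). For these 3 genes both slow-rich values lay below both fast-rich values. *Nrap* was at 900.4 and 829.5 in slow-rich against 623 and 663 in fast-rich spots (0.43, SE 0.06, adjusted p = 5.06e-07). *Myoz2*, at 1373 and 1312 against 1207 and 1215, was higher in 2 of 2 sections and missed the threshold (0.15, SE 0.06, adjusted p = 0.0596). *Myot* (-0.28), *Tcap* (-0.24) and *Ldb3* (-0.16) had small differences, of which that of *Ldb3* was lost without either E18.5 control.

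The 8 muscle genes, of which *Mylpf*, *Tnnt3* and *Myl1* encode fast isoforms, were also lower in slow-rich spots of the E18.5 controls, at 113443 and 115199 CPM against 139001 and 142370. Scaled to them, which moves the median of all genes to 0.48, *Myoz1* (-0.26), *Actn3* (-0.48) and *Myoz3* (-0.65) were still lower in slow-rich spots and *Nrap* (0.92) and *Myoz2* (0.64) higher. On that scale *Myot*, *Ldb3*, *Tcap* and *Actn2* turned to higher in slow-rich spots, by 0.21 to 0.45. Among other Z-disc genes *Csrp3* (1.19, SE 0.06) and *Ankrd2* (1.04, SE 0.07) were higher in slow-rich spots and *Nebl* (-1.44, SE 0.36) lower, of 6 higher and 7 lower in 21 tested (median -0.06).

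**Figure D5:**
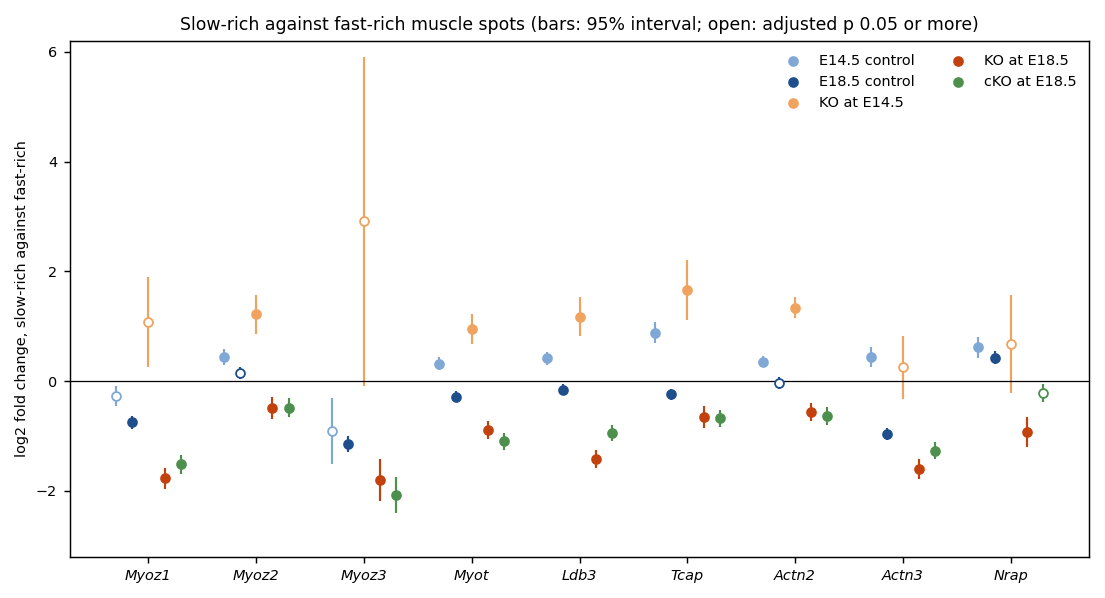
Log2 fold change of slow-rich against fast-rich muscle spots for each gene in the 5 groups, with 95% intervals from edgeR. Open points did not pass an adjusted p of 0.05. Relative to all genes, both mutants at E18.5 lie below the E18.5 controls for all 9 genes, and the E14.5 controls lie above them.

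At E14.5 the order was different. *Tcap* (0.88, SE 0.10), *Nrap* (0.61), *Myoz2* (0.44), *Actn3* (0.43), *Ldb3* (0.41), *Actn2* (0.36) and *Myot* (0.32) were higher in slow-rich spots of the controls, with 2.83% of all genes called as higher. *Myoz1* (-0.27, adjusted p = 0.0912) and *Myoz3* (-0.91, adjusted p = 0.069) were below 0 without a call. *Actn3* was the member that differed most between the stages, at 86.4, 85.4 and 91.3 CPM in slow-rich against 77.3, 62.1 and 56.8 in fast-rich spots at E14.5 (difference between stages 1.40, SE 0.10, adjusted p = 4.07e-12, where 5.94% of all genes were called in this direction). The 8 muscle genes ran the same way, at 29523, 24900 and 23384 CPM in slow-rich and 22897, 16910 and 18924 in fast-rich spots, and their part in this difference was not tested. Per 1000 UMIs of those genes, the slow to fast ratio of each E14.5 control stayed above both E18.5 controls for *Tcap* and *Actn3*. For *Myoz1*, *Myoz2*, *Myot*, *Ldb3*, *Actn2* and *Nrap* it was below both. Of the fast genes of the score, *Atp2a1* hardly differed at E14.5. It was at 1426, 923 and 1134 CPM in fast-rich and 1267, 932 and 1093 in slow-rich spots. *Myh4* was at 57.5, 51.7 and 65.8 CPM in fast-rich and 12.6, 12.6 and 9.78 in slow-rich spots. The fast-rich spots of the E18.5 controls had 357 and 430 CPM of *Myh4*, so these parts are not like classes between stages. In the KO at E14.5 *Tcap* (1.66), *Actn2* (1.34), *Myoz2* (1.21), *Ldb3* (1.17) and *Myot* (0.96) were higher in slow-rich spots (3.14% of all genes were), in a section where the 8 genes summed to 23650 CPM in slow-rich and 9867 in fast-rich spots.

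Slow-rich spots of the KO at E18.5 had less of all 9 genes (9.96% of all genes were lower). *Nrap* changed its direction, at 128 CPM in slow-rich and 243 in fast-rich spots (-0.93, SE 0.13, adjusted p = 1.72e-06), and differed from the controls by -1.36 (SE 0.14, adjusted p = 3.16e-08). *Ldb3*, at 514 and 1377, differed from the controls by -1.26 (SE 0.10, adjusted p = 2.89e-11). Relative to all genes, all 9 differences were more negative than in the controls, where 6.19% of all genes were called as such. In the cKO 8 genes were lower (13.2% of all genes were) and *Nrap*, at 988 against 1149, missed the threshold (-0.22, SE 0.08, adjusted p = 0.0504). The 9 genes also differed from the controls there, by -0.30 (*Actn3*) to -0.94 (*Myoz3*), with 5.84% of all genes called in this direction.

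The 8 muscle genes moved with these differences. The fiber genes of these parts were unlike those of the controls too. *Myh7*, the slow myosin heavy chain, was at 1757 CPM in slow-rich spots of the KO at E18.5 and at 387 in those of the cKO, against 3946 and 4767 in the controls. *Myh4*, a fast myosin heavy chain, was at 602 CPM in slow-rich spots of the KO, above the 357 and 430 of the fast-rich spots of the controls. The slow-rich and fast-rich spots are therefore ranks within a section and not like classes between sections. The 8 muscle genes summed to 48207 CPM in slow-rich and 95139 in fast-rich spots of the KO at E18.5, and to 80319 and 126160 in those of the cKO. Per 1000 UMIs of the 8 genes, *Nrap* had 2.98 UMIs in slow-rich and 2.35 in fast-rich spots of the KO, and 11.4 and 6.60 in those of the cKO, against 6.07 and 5.62 in slow-rich and 3.02 and 3.17 in fast-rich spots of the controls. *Actn2* had 33.9 and 20.8 in the KO. On this measure both were higher in slow-rich spots in each of the 4 sections at E18.5. *Ldb3* had 12.0 in slow-rich and 13.3 in fast-rich spots of the KO, where both controls had more in slow-rich spots (15.4 against 12.3, and 16.5 against 13.2). On this measure the slow to fast ratio of the KO was below both controls for *Myoz1*, *Ldb3* and *Nrap*. For *Myoz2*, *Myoz3*, *Myot*, *Tcap*, *Actn2* and *Actn3* it was above both. In the cKO it was above both for *Tcap* and *Actn3* and below both for the other members.

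Across the muscle spots of the E18.5 controls (3095 and 2207 spots), the members fell into different company. The correlations are Pearson r of log-normalized counts, spots of a section share a library and a range of depth, and no p is given. *Myoz1* and *Actn3* went together, at 0.495 and 0.616, whereas *Nrap* was at -0.153 and 0.0851 with *Myoz1* and at -0.0957 and 0.0759 with *Actn3*. *Myoz2* was at 0.343 and 0.517 with *Actn2*. *Myoz3* has a mean of 1.69 and 1.999 UMIs per muscle spot, so its correlations cannot be set beside those of the other genes.

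Among 6432 other genes with enough counts, *Myoz1* was most like *Eno3* (mean r of the 2 sections 0.766), *Tnnt3* and *Tnnc2*, and *Actn3* most like *Atp2a1* (0.657), *Acta1* and *Tnnt3*. *Actn2* and *Myot* were both most like *Tpm2* (0.629 and 0.644), *Ldb3* most like *Aldoa* (0.554, a symbol the files list more than once), *Myoz2* most like *Cox6a2* (0.497) and *Tcap* most like *Ckmt2* (0.444). *Myoz3* was most like *Tnnt3* (0.321). *Nrap* was most like *Hspb7* (0.467), *Csrp3* (0.466) and *Cryab* (0.433), genes of small heat shock proteins and of the muscle LIM protein. *Tnnt3* and *Acta1* are among the genes that chose the muscle spots.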

How the data were processed

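Sections of 5 µm were profiled by the authors with Visium probes for FFPE tissue and Space Ranger on mm10. Per the file headers, version 2.0.0 was used for the KO of E14.5 and for control sections 1 and 2 of that stage, and 2.0.1 for all others. The deposited values are raw UMI counts per gene and spot. The 9 genes and the lists of other genes were chosen with earlier results of these data known. Named are all 9 genes in every comparison, up to 4 called genes of a list with the largest change, and the 3 genes most like each member.

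Spots with at least 1000 UMIs and a mean log-normalized level (per 10000 UMIs) of 8 genes above the section's Otsu threshold counted as muscle. Counts were summed per section, or per section and part, and tested with edgeR 4.0.16 (filterByExpr, TMM, quasi-likelihood F test, Benjamini-Hochberg over all genes) in R 4.3.3. All 8 sections shared 1 fit, and comparisons within sections had the section as a block, since parts of a section come from the same embryo (correlation of their deviations 0.0848 to 0.568). Tests were checked on simulated counts. One planned comparison within the muscle is not reported here. Alternatives were DESeq2 1.42.0, no filter, scaling to the 8 muscle genes, other spots or parts, a replicate block and leaving out each control. Scaling to total UMIs was added after seeing the data. Whether same-stage controls came from separate embryos rests on the labels' replicate numbers, so p-values measure the spread between these sections. Intervals on counts cover counting error only. Python 3.11.15 with pandas 2.3.3 and scipy 1.17.1 did the rest. Gene positions are from the GRCm38 annotation.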

Additional observations from a re-analysis of the deposited data

Results flagged for a closer look

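These are differences between groups under the same contrast, each from the interaction term of the edgeR quasi-likelihood fit with Benjamini-Hochberg adjustment over all genes. Each mutant enters with 1 section. The center of the KO at E18.5 may not be the region it is in the controls. The paper reports *Chrna1* and *Musk*, genes of the center score, as spread beyond the fiber center there. The CaV1.1 KO effect differed between stages for *Myoz2*, by -1.05 (adjusted p = 0.049). The center to periphery difference changed from E14.5 to E18.5 for *Myoz1* (-1.01), *Myot* (-0.48) and *Tcap* (0.93). Against the E18.5 controls, that difference was larger in the KO at E18.5 for *Actn3* (0.55, adjusted p = 0.0141) and lower in the cKO for *Myoz3* (-0.98, adjusted p = 0.00896).

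Relative to all genes, the slow to fast difference of the E14.5 controls exceeded that of the E18.5 controls for 7 genes, namely *Myoz1* (0.48), *Myoz2* (0.29), *Myot* (0.60), *Ldb3* (0.57), *Tcap* (1.13), *Actn2* (0.39) and *Actn3* (1.40). Per 1000 UMIs of the 8 muscle genes this order held for *Tcap* and *Actn3* and was reversed for the rest of them. Fast-rich spots had 57.5, 51.7 and 65.8 CPM of *Myh4* in the E14.5 controls against 357 and 430 in the E18.5 controls. The parts are therefore not like classes between the stages. In the KO at E18.5 the slow to fast difference was below that of the controls for *Myoz1* (-1.02), *Myoz2* (-0.63), *Myoz3* (-0.66), *Myot* (-0.61), *Ldb3* (-1.26), *Tcap* (-0.41), *Actn2* (-0.53), *Actn3* (-0.63) and *Nrap* (-1.36), with adjusted p from 2.89e-11 to 0.0365. In the cKO the same contrast gave -0.77 for *Myoz1*, -0.64 for *Myoz2*, -0.94 for *Myoz3*, -0.82 for *Myot*, -0.78 for *Ldb3*, -0.43 for *Tcap*, -0.60 for *Actn2*, -0.30 for *Actn3* and -0.65 for *Nrap*. These values are relative to all genes. Per 1000 UMIs of the 8 muscle genes, the KO stayed below both controls only for *Myoz1*, *Ldb3* and *Nrap*. On that measure the cKO stayed below both for all members but *Tcap* and *Actn3*. The spots called slow-rich had 1757 CPM of *Myh7*, the slow myosin heavy chain, in the KO at E18.5 and 387 in the cKO, against 3946 and 4767 in the E18.5 controls. Those of the KO had 602 CPM of *Myh4*, a fast myosin heavy chain, against 357 and 430 in the fast-rich spots of the controls, and the part of this in the differences was not tested.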

How the results depend on the processing

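With 1 section per mutant and 2 or 3 controls, the calls of the mutant comparisons move with single controls. Counts below are of the 9 genes called, unless all genes tested are named. Scaled to the 8 muscle genes there were 5 for stage, 2 for the KO at E18.5, 1 for the cKO, 4 for the KO effect by stage and 4 for center against periphery at E18.5. Of all 14843 genes tested, 14239 were called there for stage, 12512 for the KO at E18.5, 4046 for the cKO and 4599 for the KO effect. For center against periphery it was 2899 of all 14168. The KO effect by stage had 4 with DESeq2 (1563 of all 14843 genes), 3 without the filter (1377 of all 19076) and 4 on total UMIs (4642 of all 14843). Parts of 25% gave 5 for center against periphery at E18.5 and 5 for its change with stage, where 2185 and 1282 of all 14146 genes were called. Leaving out 1 control each gave 1 to 6 for the KO at E14.5, 1 to 6 for the cKO, 0 to 4 for the KO effect by stage and 4 to 9 for center against periphery at E18.5. The 1 member each of the KO at E14.5 and the cKO came without E14.5 control 3, where 65 and 568 of all 14927 genes were called. With that section these were 304 and 1314 of all 14843. Without it 0 of all 14927 genes were called for the KO effect by stage, so 0 members there say nothing about the members. With the replicate number as a block there were 0 for the KO at E14.5, 0 for the cKO, 0 for the KO effect, 7 for the KO at E18.5 and 9 for stage. Of all 14843 genes, that block left 0, 12, 0, 2609 and 8915 called in the same order. The 0 members in those comparisons therefore say nothing about the members. The deviations of sections with the same number from their group means had r = -0.329 and -0.321. The 2 E18.5 controls mirror each other around their mean, so these values cannot show whether such sections share more than a number. Without the section block, center against periphery had 3 at E14.5, 0 at E18.5 and 0 for the change with stage, and slow against fast 2. Of all 14168 genes, 1247, 765 and 122 were called in the regional comparisons, and 345 of all 14321 for slow against fast. Of the other counts of members called, 75 stayed within 1.5 times the reported one. Of single genes under an alternative, 750 kept their direction and side of the threshold, 99 lost a call, 35 gained one and 43 changed sign.

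The log2 values that changed sign are these. Scaled to the muscle genes, stage was -0.22 for *Myoz2*, -0.016 for *Myot* and -1.28 for *Actn2*, and the KO at E14.5 was 0.13, 0.20 and 0.33 for the same genes. On that scale the KO at E18.5 was 0.38 for *Myoz1*, 0.52 for *Myoz3*, 0.15 for *Myot* and 0.40 for *Actn3*, the cKO 0.10 for *Myoz1* and 0.48 for *Actn3*, and the KO effect by stage 0.63 for *Ldb3*. Slow against fast at E18.5 was 0.21 for *Myot*, 0.33 for *Ldb3*, 0.24 for *Tcap* and 0.45 for *Actn2*, center against periphery at E18.5 -0.0078 for *Actn3*, and its change with stage -0.010 for *Nrap*. On total UMIs the cKO was 0.17 for *Actn3* and the KO effect 0.34 for *Ldb3*. With all spots the cKO was -0.016 for *Nrap* and the KO effect -0.092 for *Actn3*. For inner against edge muscle, *Tcap* was 0.17 and *Nrap* 0.57 at E14.5, *Nrap* was 0.45 at E18.5, and the change with stage was 0.38 for *Myoz2*, 0.19 for *Myot*, 0.24 for *Ldb3*, 0.63 for *Actn3* and -0.12 for *Nrap*. That change was -0.13 for *Actn2* and -0.10 for *Nrap* with parts of 25%, and -0.0022 for *Nrap* without the section block.

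Leaving out 1 control, *Actn3* in the cKO ran from -0.14 to 0.062. The change of center against periphery with stage ran from -0.098 to 0.018 for *Myoz2*, -0.88 to 0.0051 for *Myoz3*, -0.12 to 0.056 for *Ldb3*, -0.053 to 0.097 for *Actn2* and -0.042 to 0.079 for *Nrap*. The cause was not tested.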
